A study of Mus musculus with 2 samples.

Results

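Genes that burn, activate, lengthen and desaturate fatty acids were compared between the inner cell mass (ICM) and the whole blastocyst of the mouse at E3.75. They were taken by symbol from the deposited table and comprise the acyl-CoA dehydrogenase genes (Acad), the acyl-CoA synthetase genes (Acsl and Acsm), the carnitine palmitoyltransferase genes (Cpt1 and Cpt2), the hydroxyacyl-CoA dehydrogenase genes (Hadh), the peroxisomal oxidase genes (Acox), the thiolase genes (Acaa and Acat), genes whose symbol begins with Ech, the elongase genes (Elovl) and the desaturase genes (Fads). The genes were picked by symbol alone, in a set proposed with earlier results of these data known. It found 51 of the 19559 genes listed. The ICM group was 1 library from ICMs freed by immunosurgery, a procedure that lyses the outer layer of the embryo with antibody and complement, and the other group was 1 library from intact blastocysts. Both groups came from matings of B6CBAF1 females with CD-1 males, and neither carried a transgene, a deletion or a treatment that the labels mention. A whole blastocyst contains its ICM, so both libraries hold ICM RNA. The sources used here do not give the number of embryos pooled. In such bulk samples, fewer cells of a type and less RNA per cell cannot be told apart.

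Fatty acids enter metabolism when a synthetase joins them to coenzyme A. For oxidation, the carnitine shuttle moves the acyl chain into the mitochondrion, where 4 repeated steps (dehydrogenation, hydration, a further dehydrogenation and thiolysis) shorten it and release acetyl-CoA. Peroxisomes run a related cycle on very long and branched chains, and elongases and desaturases of the endoplasmic reticulum build longer and less saturated chains for membranes. Mouse preimplantation embryos hold lipid droplets and can oxidise fatty acids, and blocking that oxidation is known to impair their development.

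Reads on listed genes numbered 4125479 in the ICM library and 9271198 in the whole-blastocyst library. Levels are RPKM, the reads of a gene divided by its length and by a library total. Differences are log2((ICM RPKM + 1)/(whole-blastocyst RPKM + 1)), a scale that understates the change of low genes. A gene was counted as lower or higher from 2-fold on (-1 or 1) on that scale, so a low gene with an RPKM ratio past 2-fold can still count as within 2-fold. Ratios of RPKM carry a 95% interval from the read counts, which covers counting error in these 2 libraries and not the spread between embryos, since neither group has a replicate and no test of the groups was possible. A gene is called measured if its RPKM reached 1 in either library. The 8981 measured genes had a median difference of -0.84, and the 3013 genes at 5 or above in both libraries had one of -0.66. Differences from this second value are called centred. Markers of the labelled tissues were examined first. Of 7 epiblast genes 6 were higher from 2-fold on in the ICM library, as were 3 of 4 measured primitive endoderm genes, and 8 of 8 trophectoderm genes were lower. The 7 trophectoderm genes with reads in both libraries kept 2.08% to 14.3% of their whole-blastocyst RPKM in the ICM library. No listed marker of liver, muscle or fat reached an RPKM of 1, of 5 listed blood and immune genes 2 did (Cd68 and Cd3e), and of 8 cumulus and uterine genes 1 did (Cyp19a1, with 91 ICM reads and 0 whole-blastocyst reads).

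Of the 51 genes, 39 were measured. Among these, 21 (53.8%) were lower by 2-fold or more in the ICM library, 3 (7.69%) were higher and 15 were within 2-fold. Over all measured genes 44.0% were lower and 8.96% higher, so both shares lay near those of the whole table. The median difference of the 39 genes was -1.33. After centring, 15 were lower (38.5%, against 20.5% of all genes) and 3 higher (7.69%, against 16.9% of all genes). Counting a gene where its whole 95% interval lay past 2-fold gave 20 lower and 3 higher (51.3% and 7.69%), against 43.5% and 9.22% of all genes. Under every one of 5 scalings between the libraries 15 of the 39 genes were lower and 3 higher, the same genes as when centred. No such count was made over all genes. The 15 were Acsl1, Acsl3, Acsl5, Acsl6, Acsm3, Acadl, Acadm, Acads, Acox3, Ech1, Hadha, Acat1, Acat2, Acaa1a and Elovl1, and the 3 were Acsm5, Elovl7 and Fads1.

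**Figure D1:**
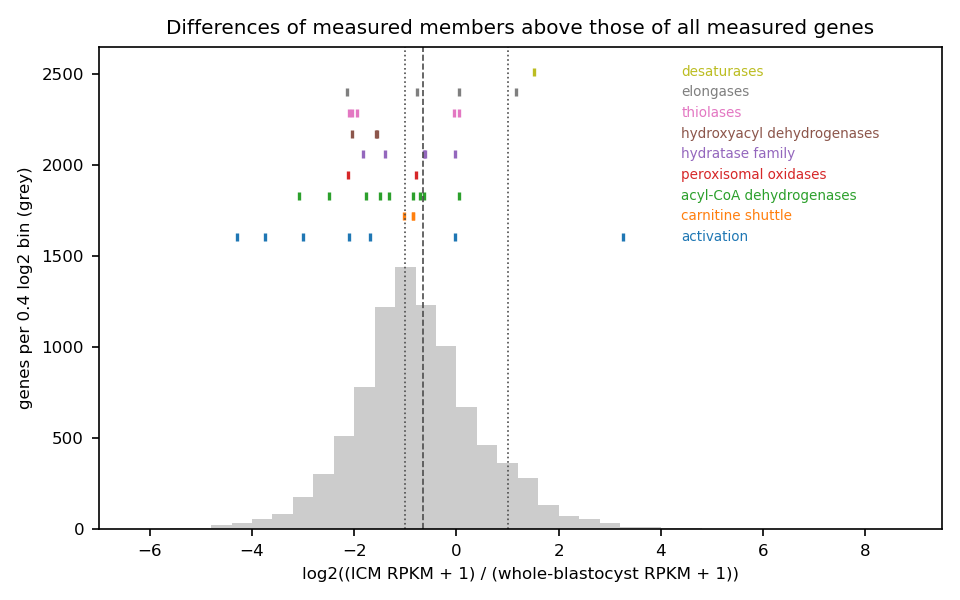
The grey histogram counts all 8981 measured genes by log2 difference (horizontal axis), and coloured ticks above it mark the 39 measured members by role; dotted lines stand at -1 and 1 and the dashed line at the shift of -0.66. The ticks of the activation genes run from -4.29 to 3.26, wider than those of the other roles, and only Acsm5, Elovl7 and Fads1 lie right of 1.

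The upstream sequence is shown for 3 genes of different roles and directions: Acsl6 (activation) and Acadm (oxidation) were lower in the ICM library and Elovl7 (elongation) was higher. RefSeq promoter entries (build GRCm38.p6, not the mm9 build of the files) matched 43 of the 51 genes by symbol. The 250 bases before the annotated start are printed 5′ to 3′. Of the 3 entries of Acsl6, the 1 that holds the marked element is shown. Capitals mark, in Acsl6, the element of the estrogen-related receptors (TCAAGGTCA, here on the opposite strand, first base at -167), in Acadm, the nuclear receptor hexamer (AGGTCA, on the opposite strand, at -249), and in Elovl7, 3 GC boxes (GGGCGG on either strand).
Acsl6, chr11:54303574-54303823, plus strand: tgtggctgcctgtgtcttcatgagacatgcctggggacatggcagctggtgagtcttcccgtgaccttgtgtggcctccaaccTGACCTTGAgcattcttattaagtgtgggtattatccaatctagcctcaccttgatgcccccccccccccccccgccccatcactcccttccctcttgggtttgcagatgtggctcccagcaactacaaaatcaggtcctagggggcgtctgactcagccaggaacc
Acadm, chr3:153944644-153944893, minus strand: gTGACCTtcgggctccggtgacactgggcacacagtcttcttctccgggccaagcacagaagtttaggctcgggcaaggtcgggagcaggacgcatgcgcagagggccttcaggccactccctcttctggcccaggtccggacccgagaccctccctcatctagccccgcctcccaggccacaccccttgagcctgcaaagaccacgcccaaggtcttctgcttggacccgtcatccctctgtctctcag
Elovl7, chr13:108214154-108214403, plus strand: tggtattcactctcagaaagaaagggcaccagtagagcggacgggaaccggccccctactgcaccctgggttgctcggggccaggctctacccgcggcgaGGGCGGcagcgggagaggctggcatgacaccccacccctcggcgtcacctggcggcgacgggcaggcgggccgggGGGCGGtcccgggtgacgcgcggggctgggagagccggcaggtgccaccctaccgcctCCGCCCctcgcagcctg
Both strands were searched, and a gene with several entries was counted if any of them held the letters. The hexamer lies within the estrogen-related receptor element and within the direct repeat known as DR1, which is the hexamer, any 1 base and the hexamer again. The hexamer was found upstream of 9 of the 33 measured members with an entry (27.3%) and of 12.4% of the 6240 measured genes with one. Those 9 were Acadm, Acadvl, Acsl6, Cpt1a, Cpt1c, Echdc3, Echs1, Elovl1 and Elovl6. The estrogen-related receptor element stood upstream of 1 member, Acsl6, and of 0.321% of all genes, and the direct repeat upstream of none of the 33 and of 0.0641% of all genes. GC boxes stood upstream of 72.7% of the members and 65.8% of all genes, the SREBP element TCACCCCAC of 1 member (Acsl1) and 0.753% of all genes, and CCAAT of 45.5% and 40.8%. TATAAA stood upstream of none of the 33 and of 7.55% of all genes. These matches describe letters in a window and not bound sites.

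Activation of long chains was the step with the widest spread. Acsl3, a synthetase of the endoplasmic reticulum and lipid droplets, had an RPKM of 13.1 in the ICM and 59.7 in the whole blastocyst (739 and 3988 reads), which is 4.55-fold lower (4.20 to 4.92). The other 3 lower isoforms had 8 or fewer ICM reads each. Acsl6 had 0.220 in the ICM and 22.9 in the whole blastocyst (4 and 494 reads). Acsl5 had 0.403 in the ICM and 17.8 in the whole blastocyst (4 and 210 reads), and Acsl1 had 0.123 in the ICM and 7.96 in the whole blastocyst (8 and 613 reads). Acsl6 was 104-fold lower (40.4 to 383), Acsl1, the main isoform of oxidative tissues, 64.6-fold (32.6 to 150.2) and Acsl5 44.2-fold (17.02 to 164). Acsl4, which prefers arachidonic acid and other polyunsaturated chains, did not follow them, with 3.73 in the ICM and 3.82 in the whole blastocyst, a ratio of 0.976 (0.853 to 1.12). Centred, Acsl4 was at 0.63.

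The make-up of the Acsl family was read on 2 length scales. By RPKM, Acsl3 held 74.6% of the family sum in the ICM and 53.2% in the whole blastocyst, Acsl4 held 21.2% in the ICM and 3.41% in the whole blastocyst, and Acsl1, Acsl5 and Acsl6 each held at most 2.29% in the ICM. These shares depend on the lengths that the authors used. The reads behind 1 RPKM unit, compared with the longest coding transcript in GENCODE M21, were 0.147 of the typical value for Acsl5 and 0.197 for Acsl6, while they were 0.897 for Acsl3. Per kilobase of that transcript Acsl3 held 70.1% in the ICM and 72.4% in the whole blastocyst, so Acsl3 took a larger part in the ICM on 1 of the 2 scales, whereas Acsl4 did so on both (28.5% in the ICM and 6.64% in the whole blastocyst). Ratios between libraries do not depend on the length.

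**Figure D2:**
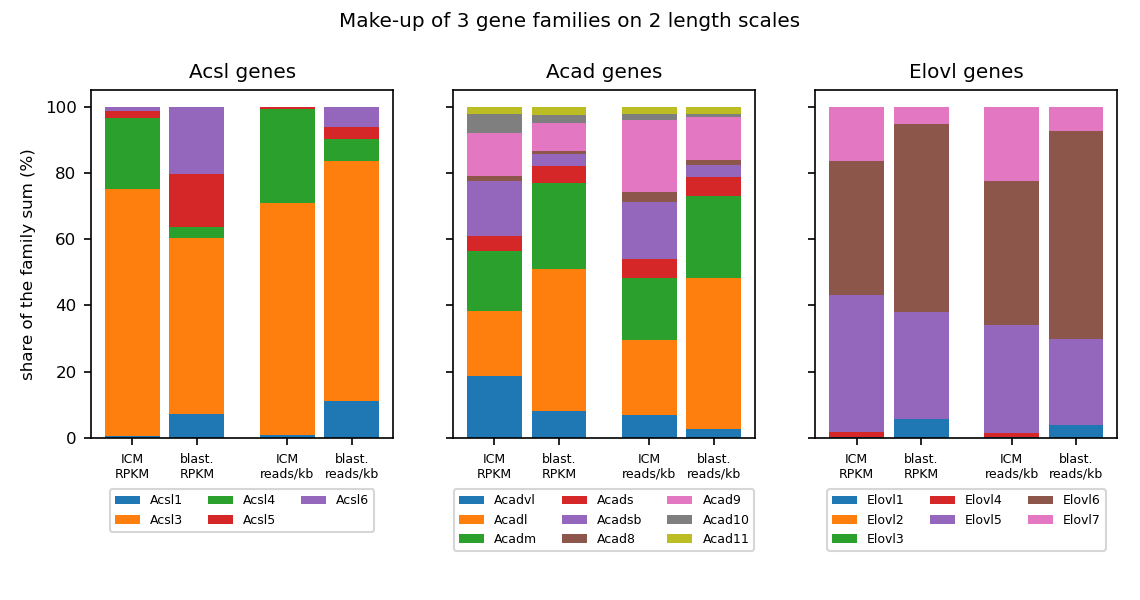
Stacked bars give the share of each gene (%) in the sum of its family, for ICM and whole blastocyst, by RPKM and by reads per kilobase of the longest GENCODE transcript. Acsl4 and Elovl7 take a larger part in the ICM on both scales (21.2% and 16.5% by RPKM), and Acadl takes a smaller one.

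The medium-chain synthetases were few. Acsm3 had an RPKM of 0.466 in the ICM, on 11 reads against 105 in the whole blastocyst, and was 8.04-fold lower (4.32 to 16.6). Its transcript shares 35.2% of its 50-base windows with that of Eri2, so reads of the 2 genes cannot always be told apart. Acsm5 was the reverse, with 210 reads and an RPKM of 8.59 in the ICM and 0 reads in the whole blastocyst. Against a floor of 3 reads it was at least 83.1-fold higher. Acsm1, Acsm2 and Acsm4 had no read in either library.

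In the carnitine shuttle 1 of 3 measured genes (33.3%) was lower by 2-fold or more, and none when centred. Of all measured genes 44.0% were lower, and 20.5% when centred. Cpt1a, the malonyl-CoA-sensitive transferase of the outer mitochondrial membrane, had an RPKM of 22.1 in the ICM and 46.4 in the whole blastocyst, 2.09-fold lower (1.98 to 2.22) and -0.38 when centred. Cpt2, its partner in the inner membrane, had 2.18 in the ICM and 4.70 in the whole blastocyst and was 2.16-fold lower (1.53 to 3.08), which is within 2-fold on the scale with the pseudocount. The ratios of Cpt1a and Cpt2 were 0.477 and 0.463. Cpt1c, the brain isoform, had 2 ICM reads and 15 whole-blastocyst reads (ratio 0.158, 0.0176 to 0.681). Cpt1b, the muscle isoform, had 0 and 1.

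**Figure D3:**
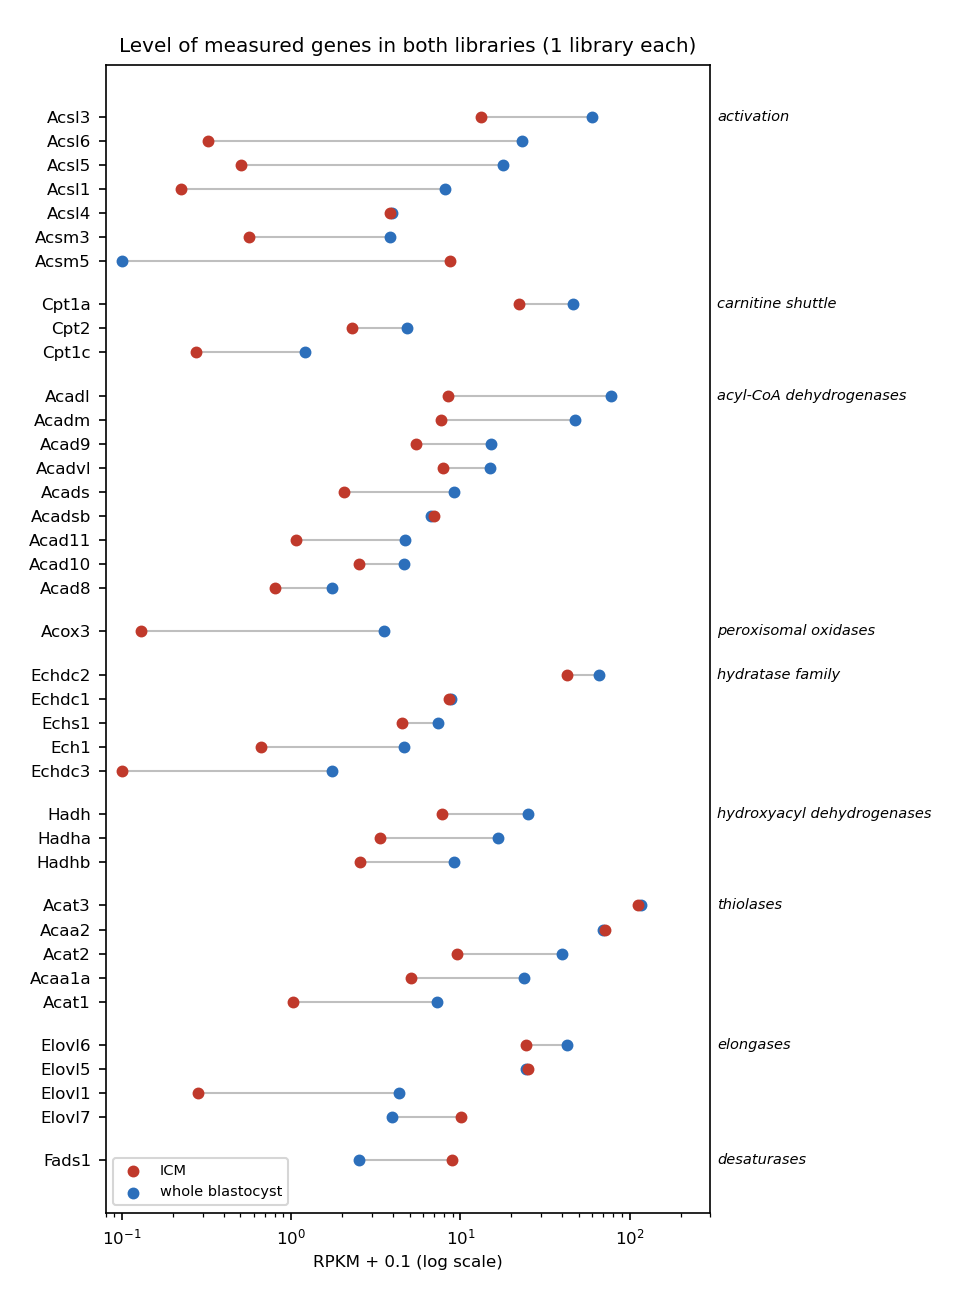
Points give RPKM + 0.1 on a log axis for 38 of the 39 measured genes, ICM in red and whole blastocyst in blue, grouped by role and joined by a line. Of the genes plotted, Acat3 and Acaa2 are the highest in the ICM library (112 and 71.6) and nearly coincide in both libraries. Acsl1, Acsl5, Acsl6, Acox3 and Elovl1 are among the genes that fall under an RPKM of 1 in the ICM.

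The acyl-CoA dehydrogenases, which open each turn of the mitochondrial cycle and are named for the chain length they take, had ratios of different sizes. Acadl, the long-chain enzyme, had an RPKM of 8.29 in the ICM and 77.2 in the whole blastocyst (212 and 2341 reads), 9.30-fold lower (8.08 to 10.8). Acadm, the medium-chain enzyme, had 7.59 in the ICM and 47.2 in the whole blastocyst (185 and 1366 reads) and was 6.22-fold lower (5.33 to 7.29). For Acads, the short-chain enzyme, the values were 1.94 in the ICM and 9.02 in the whole blastocyst, 4.65-fold lower (3.45 to 6.37). The intervals of Acadl and Acadm do not overlap, and those of Acadm and Acads do. The very-long-chain enzyme gene Acadvl had 7.78 in the ICM and 14.8 in the whole blastocyst, a ratio of 0.528 (0.394 to 0.701). Of its transcript windows 24.0% also lie in Dvl2, and the length behind its RPKM was 0.269 of the typical value, so both its ratio and its level are uncertain.

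The other dehydrogenases act mostly outside straight-chain oxidation. Acadsb, which acts on the branched chain from isoleucine, had an RPKM of 6.86 in the ICM and 6.61 in the whole blastocyst, a ratio of 1.04 (0.920 to 1.17). Acad8, the isobutyryl-CoA dehydrogenase of valine breakdown, had 0.700 in the ICM and 1.65 in the whole blastocyst and was 2.35-fold lower (1.65 to 3.41). Acad9, known as an assembly factor of respiratory complex I, had 5.38 in the ICM and 15.0 in the whole blastocyst, 2.79-fold lower (2.49 to 3.12) and -0.67 centred. The less studied Acad11 and Acad10 had ratios of 0.211 (0.146 to 0.298) and 0.528 (0.337 to 0.811), and each shares over 10% of its transcript windows with another gene, as does Acad9. Of 9 dehydrogenase genes 5 (55.6%) were lower from 2-fold on and 0 higher, against 44.0% and 8.96% of all measured genes. Centred, 3 (33.3%) were lower, against 20.5%. Acadsb made up 16.4% of the family's RPKM sum in the ICM and 3.66% in the whole blastocyst, while Acadl made up 19.8% in the ICM and 42.7% in the whole blastocyst.

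The later mitochondrial steps split. Hadha and Hadhb encode the subunits of the trifunctional protein, which carries out the last 3 steps on long chains. Hadha had 3.23 in the ICM and 16.5 in the whole blastocyst, 5.10-fold lower (4.39 to 5.94). Hadhb had 2.44 in the ICM and 9.05 in the whole blastocyst, 3.71-fold lower (2.71 to 5.17), with 62.4% of its transcript windows shared with other gene models, mainly Gm13910. Hadh, which serves medium and short chains, had 7.70 in the ICM and 24.9 in the whole blastocyst, 3.24-fold lower (2.82 to 3.74). Its hydratase counterpart Echs1 was nearer to the level of the whole blastocyst, with 4.44 in the ICM and 7.30 there, a ratio of 0.607 (0.478 to 0.768). Ech1, an isomerase needed for some unsaturated chains, rested on 5 ICM and 48 whole-blastocyst reads and was 8.09-fold lower (3.24 to 26.03).

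The hydratase-like genes Echdc1, Echdc2 and Echdc3 did not move alike. Echdc2 was the highest of them, with an RPKM of 42.4 in the ICM and 66.0 in the whole blastocyst, a ratio of 0.642 (0.583 to 0.708), or 0.03 centred. Echdc1, which destroys the side product ethylmalonyl-CoA, had 8.47 in the ICM and 8.69 in the whole blastocyst, but 81.0% of its transcript windows lie in Rnf146. Echdc3 had 0 reads in the ICM and 88 in the whole blastocyst. Against a floor of 3 reads it was at least 24.7-fold lower.

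Among the thiolases, which release acetyl-CoA, 3 of 5 measured genes were lower and 2 were within 2-fold. Acaa2, the mitochondrial enzyme that ends the cycle for medium chains, had 71.6 in the ICM and 69.4 in the whole blastocyst (956 and 1099 reads). Acaa2 had a ratio of 1.03 (0.946 to 1.13), or 0.70 centred. It was the single gene with a higher ICM value among 13 measured core genes of mitochondrial oxidation, of which 8 (61.5%, against 44.0% of all measured genes) were lower by 2-fold or more and 0 higher. Centred, 5 of them (38.5%, against 20.5%) were lower and 0 higher. The 13 were Cpt1a, Cpt1c, Cpt2, Acadvl, Acadl, Acadm, Acads, Echs1, Ech1, Hadh, Hadha, Hadhb and Acaa2. Among them Cpt1c, the brain isoform, rests on 2 ICM and 15 whole-blastocyst reads. Acat1, the mitochondrial acetoacetyl-CoA thiolase, had 0.923 in the ICM and 7.22 in the whole blastocyst and was 7.82-fold lower (6.15 to 10.06). For Acaa1a, the peroxisomal thiolase, the values were 5.01 in the ICM and 23.7 in the whole blastocyst, 4.74-fold lower (3.62 to 6.28), and its copy Acaa1b had 1 ICM and 5 whole-blastocyst reads.

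Acat2, the cytosolic thiolase that supplies sterol synthesis, and its mouse paralog Acat3 went apart although they are nearly the same sequence. Acat3 had 112 in the ICM and 117 in the whole blastocyst (3700 and 4569 reads), the highest of the 51 genes in both libraries. Its ratio was 0.961 (0.920 to 1.004), or 0.60 centred. Acat2 had 9.48 in the ICM and 39.6 in the whole blastocyst, 4.18-fold lower (3.73 to 4.70). Their longest open reading frames in GENCODE M21 have 1194 bases each and are 97.7% identical, with a longest identical run of 357 bases. Those of Acaa1a and Acaa1b are 96.5% identical over 1275 bases, with a run of 327. The sources used here do not say how reads that map to both copies were counted, so the division between the copies is uncertain. To show how few letters tell the copies apart, coding bases 361 to 420 of the Acat pair (chromosome 17) and 61 to 120 of the Acaa1 pair (chromosome 9) are printed with the mismatched letters in capitals.
Acat2: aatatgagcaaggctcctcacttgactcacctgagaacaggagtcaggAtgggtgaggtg
Acat3: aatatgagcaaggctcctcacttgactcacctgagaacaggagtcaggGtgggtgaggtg
Acaa1a: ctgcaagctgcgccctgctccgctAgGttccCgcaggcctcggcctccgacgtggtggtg
Acaa1b: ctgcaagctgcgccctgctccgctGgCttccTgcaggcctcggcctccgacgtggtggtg

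The peroxisomal oxidases replace the dehydrogenase step in that organelle. Acox3, which takes branched chains, had an RPKM of 0.0295 in the ICM and 3.46 in the whole blastocyst (2 and 278 reads), a ratio of 0.00854 (0.00103 to 0.0311). Acox2, the oxidase of bile acid synthesis, had 0 and 1 read.

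**Figure D4:**
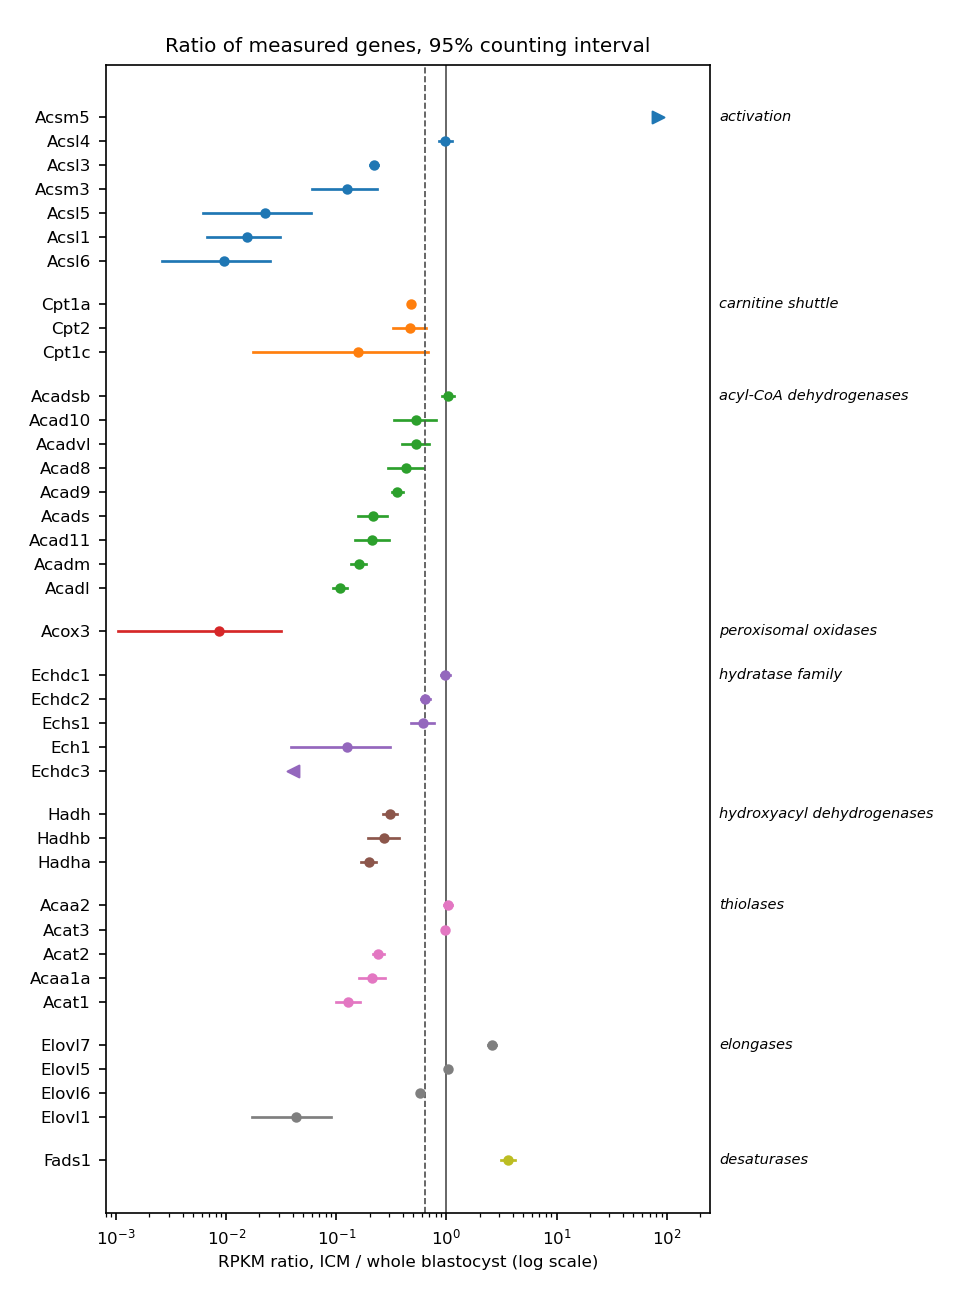
Points give the ratio of ICM to whole-blastocyst RPKM (log axis) for 38 of the 39 measured genes with 95% counting intervals, grouped by role; triangles are bounds at a floor of 3 reads, the solid line marks a ratio of 1 and the dashed line the shift of -0.66 (log2) of the 3013 genes at an RPKM of 5 or more in both. Acadl, Acadm and Acads lie left of both lines, Acadsb, Acaa2 and Elovl5 lie on the solid line, and Elovl7 (2.58) and Fads1 (3.62) lie right of it.

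Chain-building genes held 2 of the 3 higher genes. Of 5 measured elongase and desaturase genes 2 were higher, 1 was lower and 2 were within 2-fold. Of the 34 other measured genes 1 (2.94%) was higher and 20 (58.8%) were lower, against 8.96% and 44.0% of all measured genes. Centred, 2 of the 5 were higher and 1 was lower. Of the 34, 1 (2.94%) was then higher and 14 (41.2%) were lower, against 16.9% and 20.5% of all measured genes. The contrast rests on 2 higher genes of 5, and the difference between these counts was not tested. Elovl6, which lengthens palmitate to stearate, had the most reads of any of the 51 genes, with an RPKM of 24.4 in the ICM and 42.5 in the whole blastocyst (5033 and 10391 reads) and a ratio of 0.575 (0.556 to 0.595), -0.12 centred. Elovl5, an elongase of polyunsaturated chains, had 25.0 in the ICM and 24.2 in the whole blastocyst, a ratio of 1.04 (0.971 to 1.10). Elovl7 had 9.98 in the ICM and 3.87 in the whole blastocyst (1753 and 806 reads) and was 2.58-fold higher (2.37 to 2.81). Elovl1, an elongase of saturated very long chains, had 0.181 in the ICM and 4.23 in the whole blastocyst (7 and 194 reads), 23.3-fold lower (11.1 to 58.8).

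Fads1, the desaturase that sets the last double bond of arachidonic acid, had 8.79 in the ICM and 2.43 in the whole blastocyst (668 and 219 reads) and was 3.62-fold higher (3.10 to 4.24). Fads2, the desaturase that acts before it on the same route, had no read in either library. Fads6 had none either, and Fads3 had 0 in the ICM and 9 in the whole blastocyst. Elovl4, an elongase of the longest chains, had 77 reads in the ICM and 0 in the whole blastocyst. Its RPKM of 0.960 in the ICM lay just under the limit for measured genes, and against a floor of 3 reads it was at least 30.5-fold higher. Elovl2 had no read, and Elovl3 had 1 in each library.

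Shares kept in the ICM library were set beside those of the trophectoderm markers. Of the 39 genes 10 (25.6%) kept no more of their whole-blastocyst RPKM than the 14.3% that is the highest share among the markers, and of all measured genes 19.9% did. The 10 were Acsl1, Acsl5, Acsl6, Acsm3, Acadl, Acox3, Ech1, Echdc3, Acat1 and Elovl1. The values of Acsl1 (1.55%), Acsl6 (0.961%) and Acox3 (0.854%) were below that of Krt18, the marker with the lowest share among those with ICM reads (2.08%). They rest on 8, 4 and 2 ICM reads. The intervals of their ratios (0.00666 to 0.0307, 0.00261 to 0.0248 and 0.00103 to 0.0311) each contain the Krt18 ratio of 0.0208. Their order against Krt18 is therefore uncertain. The part of the lost outer layer in these values was not tested. As a share of all listed reads the 51 genes held 0.527% in the ICM (0.520 to 0.534, exact binomial 95% interval) and 0.489% in the whole blastocyst (0.484 to 0.493), while the RPKM of 33 of the 39 measured ones (84.6%) and of 76.6% of all measured genes was lower in the ICM. Elovl6 and Acat3 gave 40.2% of their ICM reads and 33.03% of their whole-blastocyst reads.

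Other genes of fatty acid metabolism were read from 9 lists. Of 96 listed genes outside the symbol rule 67 were measured, and 38 of these (56.7%) were lower from 2-fold on and 3 (4.48%) higher, against 44.0% and 8.96% of all measured genes. Centred, 24 (35.8%) were lower and 7 (10.4%) higher, against 20.5% and 16.9%. The median of the 67 genes was -1.09, against -0.84 for all. The carnitine transporter gene Slc22a5, which brings carnitine into the cell, had 0.156 in the ICM and 13.5 in the whole blastocyst, 86.4-fold lower (43.6 to 201), while the mitochondrial carrier Slc25a20 had 47.04 in the ICM and 63.1 in the whole blastocyst, a ratio of 0.745 (0.697 to 0.796). Crot, the peroxisomal octanoyltransferase, was 6.03-fold lower (5.17 to 7.06). Each of the 3 genes that pass electrons from the acyl-CoA dehydrogenases to the respiratory chain was lower, and 1 (33.3%) was when centred. Of all measured genes 44.0% were lower, and 20.5% when centred. Etfdh was 4.24-fold lower (3.35 to 5.42), Etfa 2.27-fold (2.07 to 2.49) and Etfb 2.12-fold (1.98 to 2.26). In the auxiliary and peroxisomal list 4 of 14 genes (28.6%) were lower and none higher, against 44.0% and 8.96% of all measured genes. When centred, 2 (14.3%) were lower and 2 (14.3%) higher, against 20.5% and 16.9%. The 4 lower genes were Hsd17b4, the peroxisomal multifunctional enzyme, at 4.61-fold (3.94 to 5.43), Decr1, needed for unsaturated chains, at 5.85-fold (4.83 to 7.16), Decr2 at 2.87-fold (2.36 to 3.50) and Hsd17b10 at 2.22-fold (1.65 to 3.02). The 2 higher when centred were Phyh, with 70.3 in the ICM and 41.5 in the whole blastocyst, and 1810022C23Rik (current symbol Eci3). Their ratios were 1.70 (1.55 to 1.86) and 1.89 (1.40 to 2.56).

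In fatty acid synthesis the central enzyme was low in both libraries. Fasn, fatty acid synthase, had an RPKM of 0.376 in the ICM and 0.0984 in the whole blastocyst (29 and 9 reads), a ratio of 3.82 (1.76 to 9.19). Its list also holds genes of malonyl-CoA turnover, mitochondrial synthesis and stearoyl-CoA desaturation. Of 11 measured genes of this list 7 (63.6%, against 44.0% of all measured genes) were lower and 0 higher. The 7 include Mlycd, a gene of malonyl-CoA turnover, with 0 ICM and 76 whole-blastocyst reads, so the share does not describe fatty acid synthesis alone. Centred, 3 (27.3%, against 20.5%) were lower and 1 (9.09%, against 16.9%) higher. The higher one was Acaca, with 1.35 in the ICM and 0.648 in the whole blastocyst (107 and 61 reads). Its ratio was 2.08 (1.51 to 2.90). Acly, which makes cytosolic acetyl-CoA, had 4.14 in the ICM and 37.4 in the whole blastocyst, 9.05-fold lower (7.67 to 10.7). Scd1, a stearoyl-CoA desaturase, had 11.7 in the ICM and 39.1 in the whole blastocyst (3.35-fold lower, 3.17 to 3.54). Oxsm, a mitochondrial ketoacyl synthase, was 6.72-fold lower (5.39 to 8.46), and Acss2, which activates acetate, 2.71-fold (1.996 to 3.72). Of 5 measured enzymes that complete the elongation cycle 3 were lower (2 when centred): the dehydratase gene Ptplad1 (current symbol Hacd3) by 4.22-fold (3.70 to 4.84), and its relatives Ptpla and Ptplad2 (Hacd1 and Hacd4), which had 0 ICM reads and 25 and 72 whole-blastocyst reads. The reductases Hsd17b12 and Gpsn2 (current symbol Tecr) were within 2-fold, with ratios of 0.491 and 0.600. Among 8 measured thioesterase genes 5 were lower and 1 higher (4 and 1 centred). Acot2, the mitochondrial enzyme, was 6.56-fold lower (5.94 to 7.26), Acot7 6.93-fold (4.44 to 11.3) and Acot8 3.58-fold (2.98 to 4.33), and Them4 had 8.99 in the ICM and 1.34 in the whole blastocyst (6.69-fold higher, 5.07 to 8.95).

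**Figure D5:**
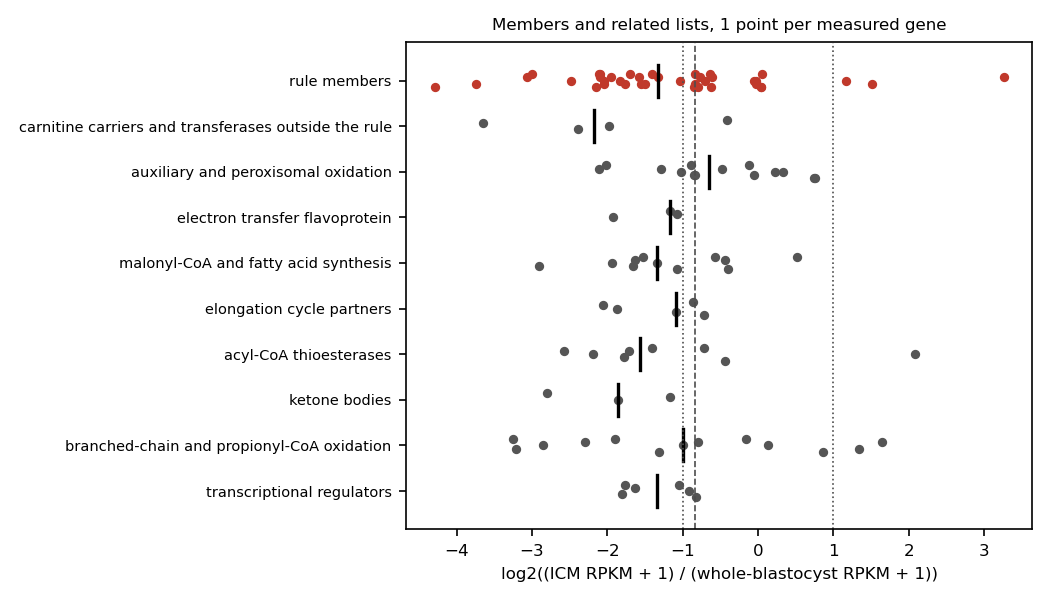
Each point is 1 measured gene, placed by its log2 difference, for the 39 members (red) and 9 related lists (grey); black bars are medians, dotted lines stand at -1 and 1 and the dashed line at -0.84, the median of all measured genes. The median of the members is -1.33, and every list but auxiliary and peroxisomal oxidation (-0.65) has a median below the dashed line.

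Other mitochondrial genes were counted in the same way, beside 44.0% lower and 8.96% higher over all measured genes. Of 34 measured complex I subunit genes (Nduf symbols) 22 were lower (64.7%) and 0 higher, and their median was -1.17. Of 70 measured mitochondrial ribosomal protein genes 38 were lower (54.3%) and 0 higher, and their median was -1.22. Centred, 10 of the complex I genes (29.4%) were lower and 1 (2.94%) higher, and of the ribosomal protein genes 19 (27.1%) were lower and 8 (11.4%) higher, beside 20.5% and 16.9% of all measured genes. No test of these lists against each other was made.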

How the data were processed

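RNA of 2 libraries was measured, 1 of ICMs and 1 of whole blastocysts. The labels' protocols name PicoPure extraction, NuGEN Ovation amplification and SOLiD fragment libraries. The authors deposited a read count and an RPKM value for each gene symbol, on mm9 per the submitters' processing notes. No source used here gives the aligner, the annotation, the use of strand or the counting of reads that map to several places, so antisense or overlapping genes cannot be told apart. The deposited RPKM per read implies a library total in the ICM of 0.842 times that of the whole blastocyst, while listed reads had a ratio of 0.445.

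Members were found by a symbol rule. The members and the lists were chosen with earlier results of these data known. All measured members are named except 1, and that member and 1 gene of the lists are not reported here. Also named are up to 4 genes of each related list (largest difference, RPKM of 5 or more in either library). Fasn and other list genes were chosen after their values were seen. Older symbols were matched through RefSeq synonyms (96 of 96). Ratio intervals are exact conditional (Clopper-Pearson) 95% intervals, and a library at 0 reads is set to a floor of 3 reads. Amplified cDNA without molecular identifiers is not a count of molecules, so intervals and floors cover counting error only. Transcript windows of 50 bases were matched on both strands to GENCODE M21, with each member's longest coding transcript. The length behind RPKM is the reads per RPKM unit over that transcript's length, divided by the median over 8013 genes with over 20 whole-blastocyst reads. The Spearman correlation of both lengths over these genes, which are not independent, was 0.587. Computations were tested on simulated counts with Python 3.11.15, scipy 1.17.1, pandas 2.3.3 and Biopython 1.88. Alternatives were the pseudocount, the filter, centring, TPM, quantile normalization, scaling to listed reads and the interval rule.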

Additional observations from a re-analysis of the deposited data

How the results depend on the processing

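No paired analysis was possible because each group has 1 library, and for the same reason no library could be left out. With a pseudocount of 0.1, 24 members (61.5%) were lower and 3 (7.69%) higher. With a pseudocount of 5 the counts were 12 (30.8%) and 1 (2.56%). They were 18 (46.2%) and 5 (12.8%) by TPM (Acaa2 and Elovl5 then also counted as higher). By quantile normalization they were 16 (41.0%) and 4 (10.3%), and scaled to listed reads 16 (41.0%) and 3 (7.69%). With the limit for measured genes at an RPKM of 5, 15 of 28 members (53.6%) were lower and 3 (10.7%) higher. Over all genes, counts of lower and higher were 1761 and 221 with a pseudocount of 5, 2590 and 362 with the limit for measured genes at an RPKM of 5, 1838 and 1516 when centred, 2649 and 1978 by TPM, 1893 and 1682 by quantile normalization, and 2312 and 1718 when scaled to listed reads. The median of the members was -1.68 with a pseudocount of 0.1, -0.68 with 5, -0.84 without a filter, -0.67 when centred, -0.73 by TPM, -0.53 by quantile normalization and -0.66 when scaled to listed reads. In the same order the median of all genes was -1.05, -0.41, -0.34, -0.185, -0.11, -0.08 and -0.13. Without the 10 measured members that share 10% or more of their transcript windows with another gene, the median of the members was -1.03. That setting was chosen after seeing the data and left 15 of 29 members (51.7%) lower and 3 (10.3%) higher. Without members of 0 reads in 1 library or under 50 reads in both, also chosen afterwards, 19 of 35 (54.3%) were lower and 2 (5.71%) higher. All genes were not counted under the 2 settings chosen afterwards. No member called lower or higher changed sign under any of the settings above. Of the 21 lower genes, Cpt1a, Acad9, Hadh and Hadhb were not 2-fold lower under any other scaling, with values between -0.11 and -0.92. The cause of each move was not tested. With 8 or fewer ICM reads, the ratios of Acsl1, Acsl5, Acsl6, Acox3, Ech1 and Elovl1 are limited by depth.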

Other observations

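Breakdown of branched-chain amino acids, which feeds the same mitochondrial steps, held genes on both sides. Of the 13 measured ones 6 (46.2%) were lower by 2-fold or more in the ICM library and 2 (15.4%) higher, and their median was -0.998. The shares of all measured genes were 44.0% and 8.96%. When centred, 5 of the 13 (38.5%) were lower and 3 (23.1%) higher, against 20.5% and 16.9% of all measured genes. Hibadh and Hibch, enzymes of valine breakdown, had an RPKM of 1.81 and 0.442 in the ICM, against 24.9 and 9.45 in the whole blastocyst, and were 13.8-fold (10.5 to 18.4) and 21.4-fold (11.4 to 45.2) lower. Mccc2, of leucine breakdown, was 29.0-fold lower (13.9 to 72.9) on 7 ICM reads, and Pccb, of propionyl-CoA carboxylase, 4.36-fold lower (3.59 to 5.34). In contrast, Bckdhb, a subunit of the branched-chain ketoacid dehydrogenase, had 37.6 in the ICM and 11.3 in the whole blastocyst (3.32-fold higher, 2.73 to 4.06). Ivd, the isovaleryl-CoA dehydrogenase of leucine breakdown, had 6.80 in the ICM and 2.09 in the whole blastocyst (3.25-fold higher, 2.53 to 4.22). Pcca, like Pccb of propionyl-CoA carboxylase, had 2.02 in the ICM and 0.653 in the whole blastocyst (26 and 10 reads). Its ratio was 3.09 (1.44 to 7.17), and it counted as higher only when centred.

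Of 3 measured ketone body genes each was lower by 2-fold or more, and 2 were when centred. The shares of all measured genes were 44.0% and 20.5%. Oxct1, which activates acetoacetate for use as fuel, had 10.5 in the ICM and 40.4 in the whole blastocyst (3.86-fold lower, 3.55 to 4.21). Of 15 transcriptional regulators of lipid metabolism 6 were measured, 4 of them (66.7%, against 44.0% of all measured genes) lower and none higher. Centred, 2 (33.3%, against 20.5%) were lower and none higher. Ppargc1b, a coactivator of mitochondrial genes, was the most abundant of the 6, with 7.83 in the ICM and 15.7 in the whole blastocyst. Its ratio was 0.500 (0.420 to 0.593), and its difference of -0.92 lay within 2-fold. Ppara had 2 reads in each library, and Pparg and Ppargc1a had none in either.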
